A study of Mus musculus with 9 samples.

Results

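The BCL2 family of apoptosis regulators was examined here as a group of 10 genes: the pro-survival genes Bcl2, Bcl2l1 (BCL-XL) and Mcl1, the effector genes Bax and Bak1, and the BH3-only genes Bcl2l11 (BIM), Bmf, Pmaip1 (NOXA), Bid and Bad. A gene was represented by the probe set that carries its symbol alone, and 9 of the 10 had exactly 1 such probe set among the 19938 genes measured. Bax had none and was not analysed here. The 9 members were measured on 9 arrays of total RNA, 3 for each of 3 cultures of mouse pluripotent cells. EpiSC CHIR/XAV are epiblast stem cells, which resemble the primed epiblast of the implanted embryo, of strain CD1, kept in CHIR99021 (3 µM), an inhibitor of the kinase GSK3, with XAV939 (2 µM), an inhibitor of tankyrase. EpiSC FGF2/activin are epiblast stem cells of the same strain kept with FGF2 (10 ng/ml), which activates ERK, and activin (10 ng/ml), a TGF-beta family ligand. ESC 2i are embryonic stem cells, which resemble the naive epiblast of the blastocyst, of strain 129, kept in 2i, which by its usual meaning is CHIR99021 (3 µM) with PD0325901 (1 µM), an inhibitor of the ERK-activating kinase MEK. The labels list the doses for all samples together, and 10% fetal bovine serum was in the basal medium of each group. Strain and PD0325901 go with cell type, so their part in any difference from ESCs cannot be told apart from that of cell state. The EpiSC groups also differ in Xist, given below with the X-linked genes, and whether they differ in line as well was not tested. The labels do not say that a group's 3 arrays are independent cultures or lines, and the p-values therefore rest on array-to-array spread that may be only technical.

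The family decides whether the outer mitochondrial membrane stays closed. BAX and BAK are the effectors that open it and release cytochrome c, the pro-survival proteins bind and restrain them, and the BH3-only proteins are stress sensors that either block the pro-survival proteins or activate the effectors directly. Pluripotent cells are known to be primed for mitochondrial apoptosis, and cells of the early epiblast are removed by it when they are unfit. BIM is controlled by ERK, which in many cell types phosphorylates the protein and marks it for degradation. RNA says nothing of that layer. Values here are log2 expression, so 1 unit is 2-fold, and since probe sets differ in brightness a level is compared between cultures only, never between genes.

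The labels were borne out by marker genes. All 8 naive ESC markers were lower in each EpiSC group than in ESCs, with the nuclear receptor gene Esrrb at 4.93 in CHIR/XAV EpiSCs and 4.72 in FGF2/activin EpiSCs against 10.08 in ESCs. All 6 primed epiblast markers were higher, with Fgf5 at 8.86 and 8.88 against 5.25, and of the 3 pluripotency markers shared by both states Pou5f1 was at 11.59, 11.68 and 11.33, while Nanog, at 10.25 and 9.86 against 12.37, and Sox2, at 11.03 and 11.32 against 11.80, were lower in each EpiSC group than in ESCs. The 11 fibroblast or feeder markers averaged 5.20 to 5.28 per array in CHIR/XAV EpiSCs, 5.15 to 5.19 in FGF2/activin EpiSCs and 5.07 to 5.10 in ESCs. In CHIR/XAV EpiSCs 2 of these were above ESCs and 2 below them by the test used throughout, against 5 and 2 in FGF2/activin EpiSCs. Thy1 was at 7.21 in CHIR/XAV EpiSCs, 5.70 in FGF2/activin EpiSCs and 5.44 in ESCs, S100a4 at 4.92, 5.46 and 4.68, Pdgfrb at 5.22, 4.70 and 5.42, and the extracellular matrix genes Dcn and Lum lay between 4.30 and 4.54 in every group. The 5 definitive endoderm markers averaged 4.88 to 5.06, 4.87 to 4.98 and 4.96 to 5.11 per array in CHIR/XAV EpiSCs, FGF2/activin EpiSCs and ESCs. Other markers moved more: the 6 trophoblast markers averaged 6.61 to 6.66 in CHIR/XAV EpiSCs, 7.70 to 7.82 in FGF2/activin EpiSCs and 6.72 to 6.84 in ESCs, the 5 neural markers 6.42 to 6.66, 6.35 to 6.50 and 5.82 to 5.93, and the 6 measured primitive streak and mesoderm markers 5.69 to 5.86, 6.09 to 6.15 and 5.47 to 5.53. Those averages mix members that went opposite ways against ESCs. By the same test 3 trophoblast markers were higher and 3 lower in FGF2/activin EpiSCs. There Krt8 and Krt18 differed by 3.79 and 3.95 but Tfap2c by -1.78. In each EpiSC group 2 neural markers were higher, Nes and Fabp7, and 2 lower, Pax6 and Tubb3. The higher streak and mesoderm markers were Eomes and Wnt3 in each, with 0 lower in CHIR/XAV and 2 in FGF2/activin EpiSCs. The part of these markers in the results below was not tested. In such bulk samples a change in RNA per cell and a change in the share of cells that hold it cannot be told apart. Array medians lay between 5.57 and 5.65. Precision is set by having 3 arrays per group.

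The family did not move as a block. Bcl2, which restrains the effectors, and Bcl2l11, which opposes it, were both higher in each EpiSC group than in ESCs, and both were highest in FGF2/activin. Bcl2l1 was higher in FGF2/activin EpiSCs alone, Bmf in CHIR/XAV EpiSCs alone, Pmaip1 went opposite ways in the 2 EpiSC cultures, Bid and Bad were modestly lower in each, Mcl1 differed by less than 0.2 in every comparison, and Bak1 was called in none. A gene is called here when its Benjamini-Hochberg adjusted p over all 19938 genes is under 0.05 in limma, a linear model fitted to all 9 arrays. By that rule 6 of the 9 members were called in CHIR/XAV EpiSCs against ESCs, 3 higher and 3 lower, where 46.7% of all genes were called (24.7% higher and 22.1% lower). In FGF2/activin EpiSCs against ESCs 7 were called, 5 higher and 2 lower, where 61.3% of all genes were (27.8% higher and 33.5% lower). Between CHIR/XAV and FGF2/activin EpiSCs 6 were called, 1 higher and 5 lower in CHIR/XAV, where 41.6% of all genes were (20.5% higher and 21.1% lower). With backgrounds so high and only 9 members, these counts alone do not set the family apart, and the description below turns on which members moved and how far.

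**Figure D1:**
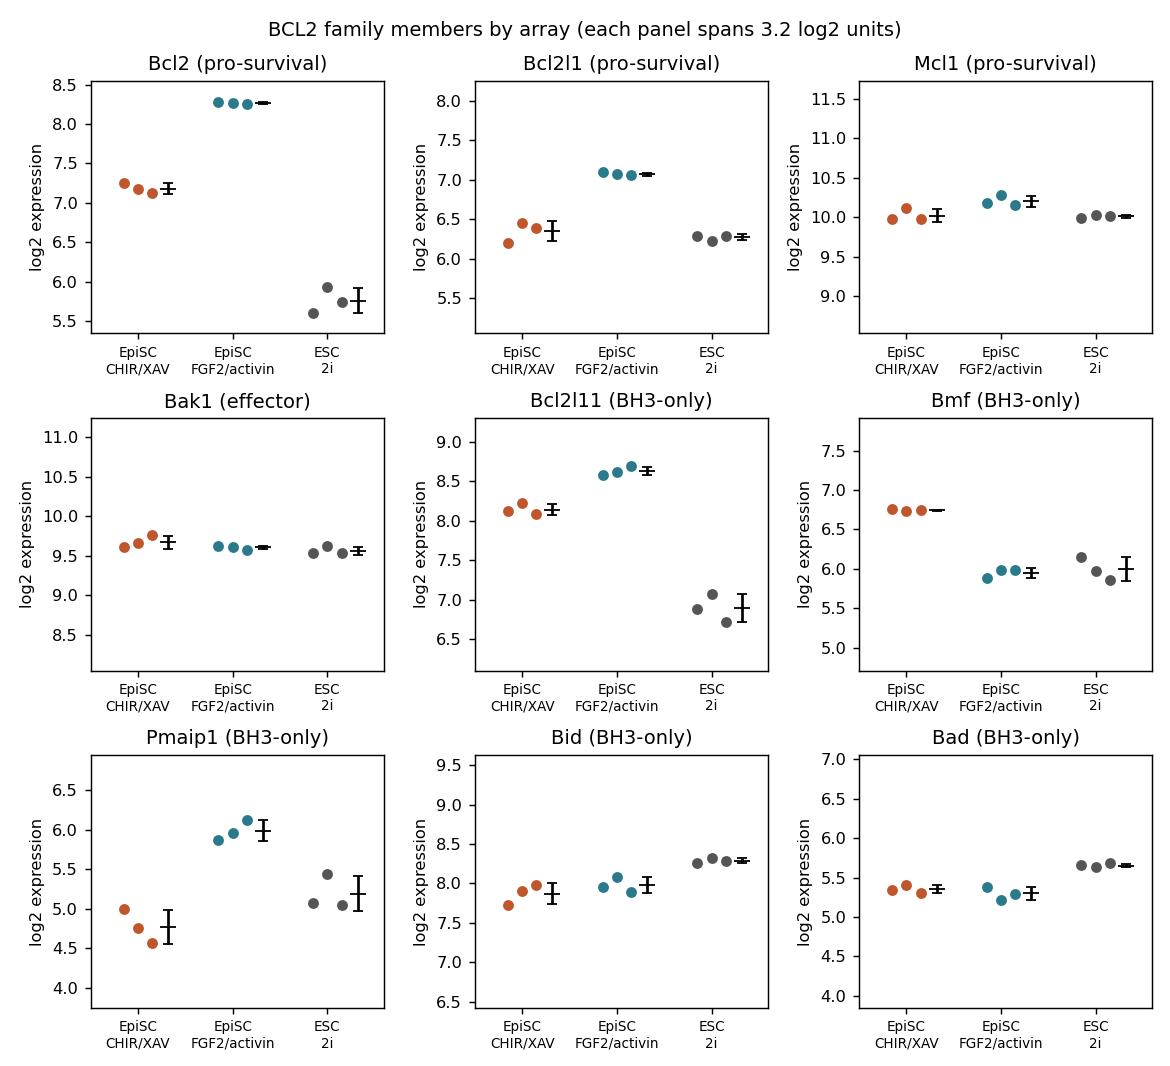
Log2 expression (y axis) of the 9 measured members on each array, by culture (x axis), with the mean ± SD of 3 arrays beside the points; all panels have the same log2 span. Bcl2 and Bcl2l11 form 3 separate levels with FGF2/activin EpiSCs at the top, at 8.27 and 8.63, and ESCs at the bottom, at 5.76 and 6.89, while Bak1 lies between 9.53 and 9.76 on every array.

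The promoters of Bcl2 and Bcl2l11 are shown because these are the members that differed at least 2-fold from ESCs. Each sequence is the 250 bases before a RefSeq start site in GRCm38.p6, 5′ to 3′ on the gene's strand, in lower case with motif matches in capitals. The capitals mark the GC box GGGCGG bound by SP and KLF factors in both sequences and, in Bcl2l11, also 1 FOXO motif GTAAACA and 1 ETS motif CCGGAAG, each searched on both strands with none of the matches overlapping. For Bcl2 the window is chr1:106714291-106714540 on the minus strand, and for the upstream of the 2 listed starts of Bcl2l11 it is chr2:128125788-128126037 on the plus strand.
Bcl2: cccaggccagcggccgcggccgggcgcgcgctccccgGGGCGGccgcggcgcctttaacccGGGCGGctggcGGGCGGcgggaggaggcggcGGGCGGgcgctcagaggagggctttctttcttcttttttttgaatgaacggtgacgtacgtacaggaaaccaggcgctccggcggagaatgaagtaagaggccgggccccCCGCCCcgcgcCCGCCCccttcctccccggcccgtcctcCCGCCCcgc
Bcl2l11: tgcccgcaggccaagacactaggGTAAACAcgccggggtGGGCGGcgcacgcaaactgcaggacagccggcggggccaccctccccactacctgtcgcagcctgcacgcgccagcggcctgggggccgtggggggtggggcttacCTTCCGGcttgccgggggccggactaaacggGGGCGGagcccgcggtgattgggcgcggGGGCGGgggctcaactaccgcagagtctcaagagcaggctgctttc

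Both windows are rich in G and C. The Bcl2 window is 74.8% G or C with 36 CpG dinucleotides and the Bcl2l11 window 72.0% with 24, against a median of 52.4% and 6 over the 32851 promoter windows of the same length in the table. Bcl2 holds 7 GC boxes and Bcl2l11 holds 3, a motif found in 32.7% of all windows. Other members had such windows too. Bid, at 63.6%, and the first listed start of Bad, at 62.8%, each held 3 GC boxes, and both genes were lower in EpiSCs. The other listed start of Bad, at 64.8%, held none of the motifs searched, and Pmaip1 had no window in the table. Mcl1, at 64.4%, held 1 GC box and 1 ETS motif. The windows of Bcl2l1, Bmf and Bak1 lay between 47.6% and 58.4% and held none of the motifs. The FOXO letters of Bcl2l11, at -227 to -221 from the start, are found in 3.17% of all windows, and its ETS letters, at -105 to -99 on the other strand, in 6.91%. The window of the other listed start of Bcl2l11, 73.2% G or C with 30 CpG dinucleotides, held 2 GC boxes but neither of these motifs. The other 5 motifs searched were absent from both printed windows: the TCF/LEF motif ATCAAAG (3.21% of all windows), the E-box CACGTG (6.02%), the TATA box TATAAA (12.4%), the AP-1 motif TGANTCA (6.75%) and the CRE TGACGTCA (1.55%). A match to such letters describes the sequence only and is no evidence of binding in these cells.

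Among the pro-survival genes Bcl2 changed most. It encodes the founding member of the family and read 7.25, 7.17 and 7.12 in CHIR/XAV EpiSCs, 8.28, 8.27 and 8.25 in FGF2/activin EpiSCs, and 5.61, 5.93 and 5.75 in ESCs. The 3 cultures did not overlap, and all arrays of an EpiSC group were above all ESC arrays. The ESC mean of 5.76 was close to the array medians of 5.57 to 5.65. A level so near background cannot be told from absence, and the fold changes against ESCs may be understated. Bcl2 was higher by 1.42 (SE 0.08) in CHIR/XAV EpiSCs than in ESCs, or 2.67-fold (limma, adjusted p = 2.46e-09), a larger absolute difference than that of 95.7% of all genes. In FGF2/activin EpiSCs it was higher than in ESCs by 2.51 (SE 0.08), or 5.69-fold (limma, adjusted p = 3.53e-12), larger than 98.4% of all genes. Between the EpiSC cultures it was lower in CHIR/XAV by 1.09, as a difference of -1.09 (SE 0.08; limma, adjusted p = 8.55e-08), so that FGF2/activin EpiSCs were 2.13-fold above CHIR/XAV EpiSCs.

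Bcl2l1 encodes BCL-XL, the pro-survival protein best known for keeping human pluripotent cells alive. It read 6.20, 6.45 and 6.39 in CHIR/XAV EpiSCs, 7.10, 7.07 and 7.06 in FGF2/activin EpiSCs, and 6.29, 6.22 and 6.29 in ESCs. The FGF2/activin arrays stood above all others, while CHIR/XAV and ESC arrays overlapped. FGF2/activin EpiSCs exceeded ESCs by 0.81 (SE 0.07), or 1.75-fold (limma, adjusted p = 3e-07). CHIR/XAV EpiSCs were lower than FGF2/activin EpiSCs, with a difference of -0.73 (SE 0.07; limma, adjusted p = 1.88e-06). The difference between CHIR/XAV EpiSCs and ESCs was not called (0.08, adjusted p = 0.413, limma), with a 95% interval of the ratio from 0.947 to 1.18.

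Mcl1 encodes a short-lived pro-survival protein that embryos need around implantation. It read 9.97, 10.11 and 9.97 in CHIR/XAV EpiSCs, 10.18, 10.28 and 10.15 in FGF2/activin EpiSCs, and 9.99, 10.03 and 10.02 in ESCs. FGF2/activin arrays were slightly above the rest, by 0.19 (SE 0.07) over ESCs, or 1.14-fold (limma, adjusted p = 0.0274), and CHIR/XAV was lower than FGF2/activin by a difference of -0.18 (limma, adjusted p = 0.0445). These calls are weak. Against ESCs the call was lost after quantile normalization (0.14, adjusted p = 0.0806), after both scalings over the tested genes alone (adjusted p = 0.145 and 0.129), and without replicate 1 or 3 of the ESCs or replicate 1 or 2 of FGF2/activin, with adjusted p between 0.0517 and 0.115. Between the EpiSC cultures it was lost under 11 of 19 alternatives, with adjusted p up to 0.171 without FGF2/activin replicate 2. CHIR/XAV EpiSCs and ESCs differed by 0.01 (limma, adjusted p = 0.952), with a 95% interval of the ratio from 0.907 to 1.11.

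**Figure D2:**
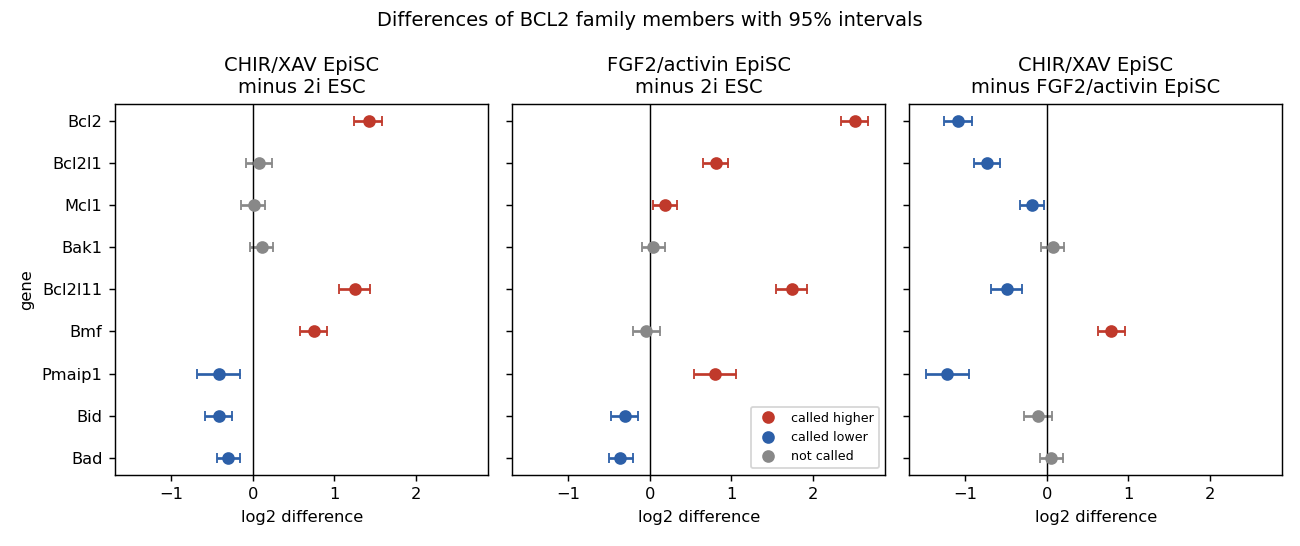
Log2 difference (x axis) of each measured member (y axis) in the 3 comparisons, with 95% intervals from limma. Bcl2 and Bcl2l11 lie right of 0 in both comparisons with ESCs, Pmaip1 lies at -0.42 in CHIR/XAV and at 0.80 in FGF2/activin EpiSCs, and Bmf is the member called higher in CHIR/XAV than in FGF2/activin EpiSCs, by 0.79.

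Of the effectors only Bak1 was measured. It encodes BAK, which resides on mitochondria and opens their outer membrane when activated. It read 9.61, 9.66 and 9.76 in CHIR/XAV EpiSCs, 9.63, 9.61 and 9.58 in FGF2/activin EpiSCs, and 9.54, 9.62 and 9.53 in ESCs, so all groups overlapped. It was called in none of the 3 comparisons by limma and had no unadjusted p under 0.05 in them. The 95% interval of the ratio ran from 0.979 to 1.19 for CHIR/XAV EpiSCs over ESCs, from 0.934 to 1.14 for FGF2/activin EpiSCs over ESCs, and from 0.95 to 1.15 for CHIR/XAV over FGF2/activin EpiSCs.

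Of the BH3-only genes Bcl2l11 changed most against ESCs, while Pmaip1 and Bmf differed more between the EpiSC cultures. It encodes BIM, which binds every pro-survival member and can activate the effectors itself. It read 8.12, 8.22 and 8.08 in CHIR/XAV EpiSCs, 8.58, 8.62 and 8.69 in FGF2/activin EpiSCs, and 6.88, 7.07 and 6.71 in ESCs. As with Bcl2, the cultures did not overlap and ran in the same order. It was higher than in ESCs by 1.25 (SE 0.09) in CHIR/XAV EpiSCs, or 2.38-fold (limma, adjusted p = 2.16e-08), and by 1.74 (SE 0.09) in FGF2/activin EpiSCs, or 3.34-fold (limma, adjusted p = 4.26e-10). CHIR/XAV was lower than FGF2/activin, with a difference of -0.49 (SE 0.09; limma, adjusted p = 0.000392). Dusp6, an ERK-induced phosphatase gene, was also higher outside the medium with the MEK inhibitor, at 10.11 in CHIR/XAV EpiSCs and 10.24 in FGF2/activin EpiSCs against 5.99 in ESCs. Whether ERK activity has a part in the level of Bcl2l11 was not tested.

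Bmf, whose product is held on the cytoskeleton by dynein light chains and is freed by stress or loss of attachment, was the member that set CHIR/XAV apart upwards. It read 6.76, 6.73 and 6.75 in CHIR/XAV EpiSCs, 5.88, 5.98 and 5.99 in FGF2/activin EpiSCs, and 6.15, 5.97 and 5.86 in ESCs. The CHIR/XAV arrays stood above all others and the other cultures overlapped. It was higher in CHIR/XAV EpiSCs by 0.75 (SE 0.08) than in ESCs, or 1.68-fold (limma, adjusted p = 1.56e-06), and by 0.79 (SE 0.08) than in FGF2/activin EpiSCs, or 1.73-fold (limma, adjusted p = 1.45e-06). The difference between FGF2/activin EpiSCs and ESCs was not called (-0.05, adjusted p = 0.606, limma), with a 95% interval of the ratio from 0.863 to 1.09.

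Pmaip1, the gene of NOXA, is a p53 target whose product binds MCL1 and promotes its degradation. It read 5.0, 4.75 and 4.56 in CHIR/XAV EpiSCs, 5.87, 5.96 and 6.13 in FGF2/activin EpiSCs, and 5.07, 5.44 and 5.05 in ESCs. The groups did not overlap, with FGF2/activin at the top and CHIR/XAV at the bottom, but the lowest ESC array was only just above the highest CHIR/XAV array. The probe set is dim, with 41.0% of genes dimmer over the 9 arrays, so a level near background cannot be told from absence and a fold change may be understated. FGF2/activin EpiSCs were higher than ESCs by 0.80 (SE 0.12), or 1.74-fold (limma, adjusted p = 6.03e-05). CHIR/XAV EpiSCs were lower than ESCs, with a difference of -0.42 (SE 0.12; limma, adjusted p = 0.0111), a call that was lost without ESC replicate 2 (-0.29, adjusted p = 0.0591) or CHIR/XAV replicate 3 (-0.31, adjusted p = 0.0574). The direct difference between CHIR/XAV and FGF2/activin EpiSCs was -1.22 (SE 0.12; limma, adjusted p = 1.89e-06), so that FGF2/activin EpiSCs were 2.33-fold higher, and it exceeded in size that of 97.5% of all genes.

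Bid and Bad, the last of the BH3-only genes, were lower in each EpiSC group than in ESCs. Bid, whose product links death receptors to mitochondria once caspase-8 has cut it, read 7.73, 7.90 and 7.98 in CHIR/XAV EpiSCs, 7.96, 8.08 and 7.89 in FGF2/activin EpiSCs, and 8.26, 8.32 and 8.28 in ESCs. Its differences from ESCs were -0.42 in CHIR/XAV (SE 0.08; limma, adjusted p = 0.000475) and -0.31 in FGF2/activin (SE 0.08; limma, adjusted p = 0.00376). Bad, whose product is switched off by survival kinases that phosphorylate it, read 5.34, 5.41 and 5.30, then 5.38, 5.22 and 5.29, in CHIR/XAV and FGF2/activin EpiSCs, against 5.66, 5.63 and 5.68 in ESCs. It differed from ESCs by -0.30 in CHIR/XAV (SE 0.07; limma, adjusted p = 0.00164) and by -0.36 in FGF2/activin (SE 0.07; limma, adjusted p = 0.000371), and it is a dim gene, with 43.7% of genes dimmer. For each gene every ESC array was above every EpiSC array. Neither was called between CHIR/XAV and FGF2/activin EpiSCs (limma), with a 95% interval of the ratio from 0.826 to 1.04 for Bid and from 0.941 to 1.15 for Bad.

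Over the measured members together, 6, 7 and 6 of 9 had groups that did not overlap in CHIR/XAV against ESCs, FGF2/activin against ESCs and CHIR/XAV against FGF2/activin. Of all genes, 53.2%, 66.6% and 52.0% had groups that did not overlap. At 2-fold or more 2 members were called in each comparison, where 8.32%, 10.1% and 4.11% of all genes were (5.03%, 6.66% and 1.62% higher and 3.3%, 3.45% and 2.5% lower): Bcl2 and Bcl2l11 in both comparisons with ESCs, and Bcl2 and Pmaip1 between the EpiSC cultures. The median absolute difference of the members was 0.42, 0.36 and 0.49 in these 3 comparisons, and that of all genes was 0.19, 0.26 and 0.17. All genes here include dim ones, since no intensity filter was used, and the members were chosen with earlier results of these data known. The comparisons with ESCs share the same 3 ESC arrays. The neighbourhood of each member was also measured: over the 20 genes nearest to each member in chromosomal order, the median difference lay between -0.21 and 0.14 in all comparisons. Beside Bcl2 it was -0.02 in each comparison with ESCs, and beside Bcl2l11 it was 0.01 in CHIR/XAV and -0.21 in FGF2/activin EpiSCs.

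Genes with predicted or clone names were left out of the search for similar patterns. For the 4 members with the widest range of group means, the 3 remaining genes closest in pattern were taken by the root mean square difference of gene-centred log2 values over 9 arrays. For Bcl2 they were Egr1 (0.06), an early-response transcription factor, Tdgf1 (0.10), the NODAL co-receptor, and Faxc (0.11). For Bcl2l11 they were Herc3 (0.08), Klf7 (0.10) and Pkdcc (0.10), for Pmaip1 Ikbip, Eda2r and Mme (0.16 each), and for Bcl2l1 Rassf8 (0.05), Sema7a (0.05) and Tmem59 (0.06). Egr1 was at 6.07 in CHIR/XAV EpiSCs, 7.17 in FGF2/activin EpiSCs and 4.6 in ESCs, and Eda2r, a receptor of the TNF receptor family, was at 8.10, 9.20 and 8.39.

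**Figure D3:**
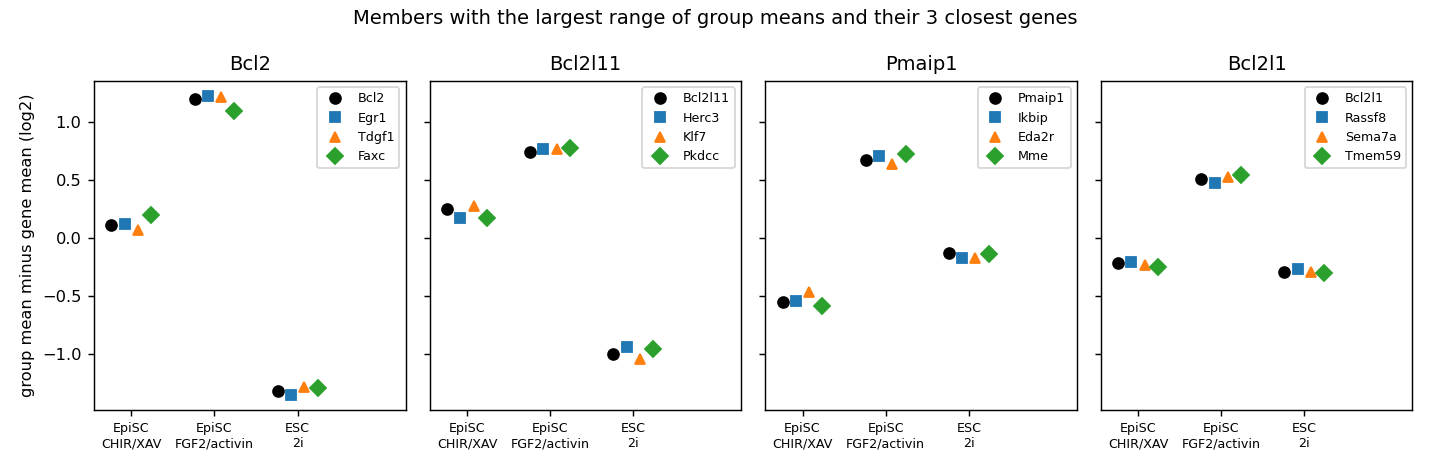
Group means minus the mean of the 3 groups (log2, y axis) in the 3 cultures (x axis) for the 4 members with the widest range, in black, and for the 3 genes closest to each in pattern. The closest genes were chosen on these same arrays, so their likeness to a member follows from the choice. Bcl2 and Egr1 both peak in FGF2/activin EpiSCs, and Pmaip1 and its closest genes are lowest in CHIR/XAV EpiSCs.

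The rest of the apoptosis pathway was described with 6 lists of 69 genes, 60 of them measured. In CHIR/XAV EpiSCs against ESCs 25 of the 60 were called higher and 9 lower, or 56.7% against 46.7% of all genes, with a median of 0.12 against -0.03. In FGF2/activin EpiSCs against ESCs 31 were higher and 14 lower, or 75.0% against 61.3%, with a median of 0.18 against -0.08. Between CHIR/XAV and FGF2/activin EpiSCs 9 were higher and 19 lower in CHIR/XAV, or 46.7% against 41.6%, with a median of -0.04 against 0.05. The lean towards higher calls against ESCs depends on the scaling: after median centring over the tested genes alone, the calls were 21 upward with 15 downward in CHIR/XAV EpiSCs, and 24 upward with 19 downward in FGF2/activin EpiSCs. No gene of these lists that was called here was called in the opposite direction under the 4 other scalings tried.

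Among 13 further BCL2 family genes, 3 exceeded ESCs and 1 was below them in CHIR/XAV EpiSCs, or 30.8% against 46.7% of all genes. In FGF2/activin EpiSCs 6 exceeded ESCs and 3 were below them, or 69.2% against 61.3%. That balance turned after median centring over the tested genes, with 2 upward and 4 downward calls in CHIR/XAV EpiSCs, then 4 upward and 5 downward in FGF2/activin EpiSCs. Bnip3, a mitochondrial BH3-like protein gene known for mitophagy and induction by hypoxia, was higher by 1.77 in CHIR/XAV EpiSCs and by 2.02 in FGF2/activin EpiSCs, at 11.19 and 11.44 against 9.42 in ESCs. Bcl2l14 (BCL-G) was lower, with differences of -1.46 and -1.97, at 5.25 and 4.75 against 6.72. Bcl2l13, a mitochondrial family member, was higher by 0.52 in CHIR/XAV EpiSCs and by 0.51 in FGF2/activin EpiSCs, and Bnip3l, a relative of Bnip3, by 0.23 and 0.55, the first of which was lost after median centring over the tested genes. The EpiSC cultures differed in 6 of the 13, or 46.2% against 41.6% of all genes, 3 higher and 3 lower in CHIR/XAV. Bcl2l14 (0.51), Bok (-0.39), an effector-like gene, and Bnip3l (-0.32) led them.

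Of 8 transcription factor genes known to act on BH3-only genes, 4 exceeded ESCs and 2 were below them in CHIR/XAV EpiSCs, against 4 and 3 in FGF2/activin EpiSCs. The share called was 75% and 87.5%, against 46.7% and 61.3% of all genes. Jun, a component of AP-1, was at 8.61 and 9.11 in CHIR/XAV and FGF2/activin EpiSCs against 5.64 in ESCs, differences of 2.97 and 3.46. Foxo1, a forkhead factor restrained by AKT, was at 8.53 and 8.83 against 7.17, differences of 1.35 and 1.65. Ddit3 (CHOP), a factor of the unfolded protein response, was lower, at 5.44 and 5.87 against 7.33. In CHIR/XAV against FGF2/activin EpiSCs 1 was higher and 4 lower, or 62.5% against 41.6% of all genes. Atf4 (0.71), Jun (-0.49) and Ddit3 (-0.42) led them. Trp53, the gene of p53, was not analysed here.

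Of 9 genes for proteins that tether or turn over family members, 2 exceeded ESCs and 2 were below them in CHIR/XAV EpiSCs, or 44.4% against 46.7% of all genes. In FGF2/activin EpiSCs 5 exceeded ESCs and 2 were below them, or 77.8% against 61.3%. Those counts were 3 and 3 after quantile normalization and after median centring over the tested genes. Usp9x, a deubiquitinase that stabilises MCL1, was lower, with differences of -0.44 and -0.39. Dynll2, the dynein light chain that holds BMF, was lower in CHIR/XAV EpiSCs, with a difference of -0.34, and was not called in FGF2/activin EpiSCs (-0.18; limma, adjusted p = 0.0932). Ywhab and Ywhaz encode adaptors that hold phosphorylated BAD: Ywhab was higher by 0.33 in CHIR/XAV EpiSCs and by 0.41 in FGF2/activin EpiSCs, and Ywhaz by 0.26 and 0.29. Between the EpiSC cultures Gsk3b alone was called, lower in CHIR/XAV (-0.32), the kinase that CHIR99021 inhibits and that marks MCL1 for degradation. The 1 call is 11.1% of the list, against 41.6% of all genes.

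**Figure D4:**
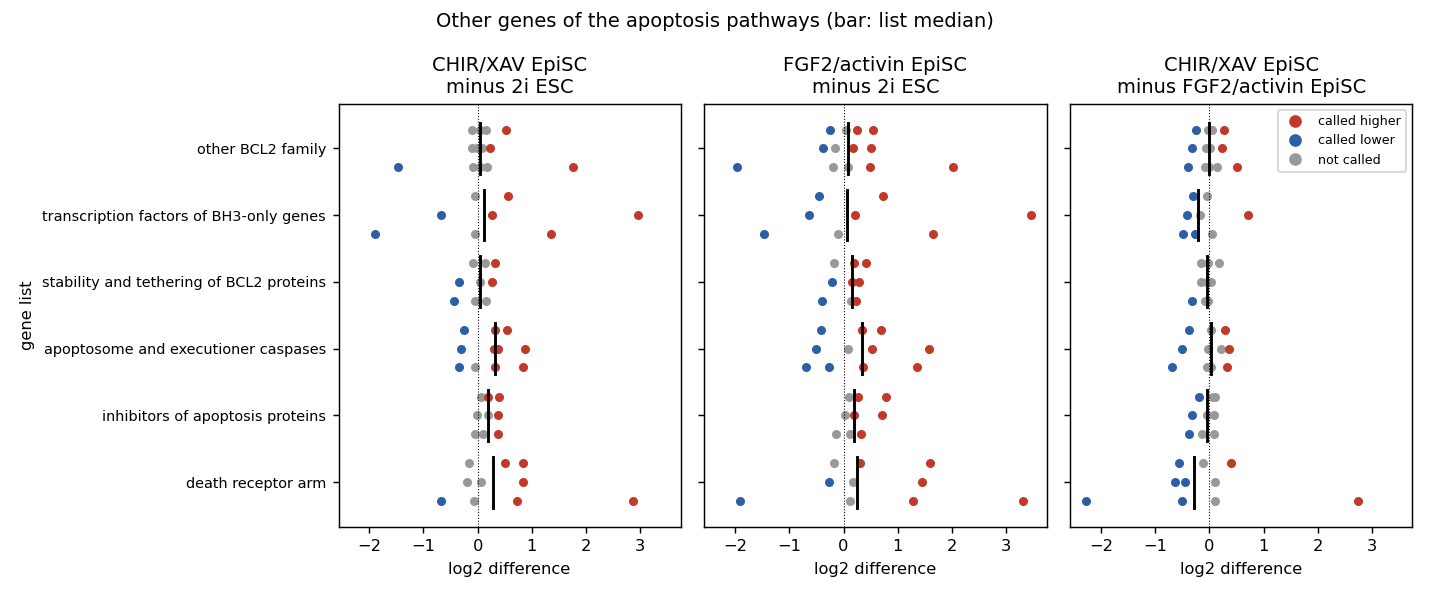
Log2 difference (x axis) of each measured gene in 6 lists of the apoptosis pathway (y axis) in the 3 comparisons, coloured by call, with a black bar at the list median. Casp8 is the point at 2.86 in CHIR/XAV and 3.32 in FGF2/activin EpiSCs against ESCs, and Ripk3 and Tnfrsf10b are the outer points of the death receptor arm, at 2.75 and -2.28, between the EpiSC cultures.

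Downstream of mitochondria, 10 of 11 genes of the apoptosome and its caspases were called in each comparison with ESCs. That is 90.9%, against 46.7% of all genes in CHIR/XAV and 61.3% in FGF2/activin EpiSCs. Calls were 7 upward and 3 downward in CHIR/XAV EpiSCs, then 6 upward and 4 downward in FGF2/activin EpiSCs. Apaf1, the scaffold of the apoptosome, was at 9.20 and 9.70 in CHIR/XAV and FGF2/activin EpiSCs against 8.36 in ESCs, differences of 0.84 and 1.35. Casp6, an executioner caspase gene, was at 7.97 and 8.66 against 7.10, differences of 0.87 and 1.57. Dffa, the gene of the inhibitor of the apoptotic nuclease, was higher by 0.54 in CHIR/XAV EpiSCs and by 0.52 in FGF2/activin EpiSCs, and the nuclease gene Dffb by 0.32 and 0.69. The caspase gene Casp2 was lower, with differences of -0.35 and -0.69. Between CHIR/XAV and FGF2/activin EpiSCs 3 were higher and 3 lower, or 54.5% against 41.6% of all genes. Casp6 (-0.70), Apaf1 (-0.51) and Dffb (-0.37) led them.

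Of 9 measured inhibitors of apoptosis, some of which block caspases, 4 were called higher and 0 lower in CHIR/XAV EpiSCs against ESCs, or 44.4% against 46.7% of all genes. In FGF2/activin EpiSCs 5 were called higher and 0 lower, or 55.6% against 61.3%, so the share called was near the background in each. After median centring over the tested genes 3 were higher and 1, Naip2, was lower in FGF2/activin EpiSCs (-0.22; limma, adjusted p = 0.0111). Xiap was higher by 0.40 and 0.78 in CHIR/XAV and FGF2/activin EpiSCs, at 7.80 and 8.18 against 7.39 in ESCs, and Birc2 by 0.38 and 0.71. Birc6 was higher by 0.38 and 0.27, and Birc3 by 0.32 in FGF2/activin EpiSCs, a call lost after quantile normalization over the tested genes (0.07, adjusted p = 0.477). The FGF2/activin calls of Birc6 and Birc5 against ESCs were lost after quantile normalization (adjusted p = 0.0944 and 0.522) and under both scalings over the tested genes. CHIR/XAV EpiSCs were below FGF2/activin EpiSCs in 3, Xiap (-0.38), Birc2 (-0.33) and Birc5 (-0.20), or Xiap alone after quantile normalization, where Birc2 had an adjusted p = 0.0815 and Birc5 an adjusted p = 0.31. Xiap, Usp9x, Huwe1 and Aifm1 are the 4 X-linked genes of these lists, and Xist, the RNA of the inactive X chromosome, was at 9.12 in CHIR/XAV EpiSCs, 4.38 in FGF2/activin EpiSCs and 4.59 in ESCs. Xist differed by 4.74 between the EpiSC cultures (limma, adjusted p = 2.45e-12). Its part in these values, or in any other difference between the EpiSC cultures, was not tested.

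The death receptor arm reaches the family through BID. Of 10 genes measured, 5 exceeded ESCs and 1 was below them in CHIR/XAV EpiSCs, against 5 and 2 in FGF2/activin EpiSCs. The share called was 60% and 70%, against 46.7% and 61.3% of all genes. Casp8, the initiator caspase that cuts BID, was at 9.81 and 10.26 in CHIR/XAV and FGF2/activin EpiSCs against 6.95 in ESCs, differences of 2.86 (SE 0.07) and 3.32 (SE 0.07; limma, adjusted p = 1.76e-13 and adjusted p = 3.34e-14). Bid, its substrate, was among the genes lower in each EpiSC group. Tnfrsf1a, a TNF receptor gene, was higher by 0.83 in CHIR/XAV EpiSCs and by 1.45 in FGF2/activin EpiSCs. Ripk3, the kinase of necroptosis, was at 7.43 in CHIR/XAV EpiSCs, 4.68 in FGF2/activin EpiSCs and 6.59 in ESCs. Tnfrsf10b, the TRAIL receptor gene, was at 8.59 in CHIR/XAV EpiSCs, 10.86 in FGF2/activin EpiSCs and 9.27 in ESCs. Between CHIR/XAV and FGF2/activin EpiSCs 2 genes of the arm were higher and 5 lower, or 70% against 41.6% of all genes. Ripk3 (2.75), Tnfrsf10b (-2.28) and Tnfrsf1a (-0.63) led them.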

How the data were processed

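Groups and replicate numbers were read from sample titles. The deposited values are log2 expression, which the authors obtained with RMA in Partek according to the submitters' processing notes. Software versions and the build of the array annotation were not given in the sources used here; scanner signals and detection calls were not used. A single gene symbol was attached to 21789 of 35399 probe sets, several to 1621 and none to 11989. Only probe sets with a single symbol entered, and for the 999 genes with more than 1 the brightest by mean over 9 arrays was kept. Symbols were updated by gene ID (19856 of 19938 matched) to a RefSeq table of GRCm38.p6, which also gave chromosomal order and, with its promoter table, the sequences.

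Differences came from limma 3.58.1 (R 4.3.3; lmFit, contrasts.fit and eBayes) fitted to all 9 arrays together, without covariates or an intensity filter. SEs and 95% intervals are moderated ones. On simulated data the fit recovered all changes of 2-fold or more but missed some smaller ones, falling short of the recovery first required of those; the requirement was then relaxed, so small true changes may go uncalled here. The members and lists were chosen with earlier results of these data known. Genes named outside the members include up to 3 called genes with the largest absolute difference per list and comparison. Others are cell type markers, the 3 genes nearest in pattern to 4 members and, chosen after their values were seen, Dusp6 and Xist. Huwe1 and Aifm1 were added for their X linkage, and Naip2 because a rescaling called it. Alternatives averaged a gene's probe sets, dropped the dimmest 40% of genes, let the variance follow a trend with robust estimation, fitted 2 groups at a time, rescaled arrays by their medians or quantiles, weighted arrays, blocked on replicate number, or left out each array. Rescaling was first run over the tested genes alone; after those results were seen it was run over all probe sets of an array, and "median centring" and "quantile normalization" without further words mean the second version.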

Additional observations from a re-analysis of the deposited data

Results flagged for a closer look

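Genes that were called in opposite directions against ESCs in the 2 EpiSC cultures, with the difference between the cultures tested directly in limma, are given here. Pmaip1 differed by -1.22 between CHIR/XAV and FGF2/activin EpiSCs (adjusted p = 1.89e-06), being lower than in ESCs by a difference of -0.42 in CHIR/XAV and higher by 0.80 in FGF2/activin. The first of these calls was lost without ESC replicate 2 or CHIR/XAV replicate 3. Atf4, a factor of the integrated stress response, differed by 0.71 (adjusted p = 1.72e-06), at 8.30 in CHIR/XAV EpiSCs, 7.59 in FGF2/activin EpiSCs and 8.04 in ESCs, and its call in CHIR/XAV against ESCs (0.26) was lost after median centring over the tested genes (0.16, adjusted p = 0.0612). Tnfrsf10b differed by -2.28 (adjusted p = 4.56e-12), with -0.68 in CHIR/XAV and 1.6 in FGF2/activin EpiSCs against ESCs. Ripk3 differed by 2.75 (adjusted p = 8.34e-11), with 0.84 in CHIR/XAV and -1.91 in FGF2/activin EpiSCs against ESCs.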

How the results depend on the processing

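The count of members called ranged from 5 to 6 in CHIR/XAV EpiSCs against ESCs, from 6 to 7 in FGF2/activin EpiSCs against ESCs and from 5 to 6 between the EpiSC cultures over 19 alternatives each, and that of the wider lists from 32 to 37, 39 to 47 and 24 to 29. All differences of Bcl2 and Bcl2l11 kept their direction and call, Bcl2 ranging from 1.31 to 1.5, 2.33 to 2.59 and -1.13 to -0.97 in the 3 comparisons. Of 513 alternative values for 27 member differences, 477 kept direction and side of the threshold, 20 lost the call and 16 changed sign. Many of the 477 could not have changed direction. Averaging probe sets left every member as it was, since each has 1. Dropping dim genes, the variance trend, fits of 2 groups, the replicate block and leaving out an array of the group not compared could change only p-values. The lost calls were those of Mcl1 (18 in all, in 2 comparisons) and of Pmaip1 in CHIR/XAV against ESCs. Every sign change was of a difference not called. In CHIR/XAV against ESCs, Bcl2l1 became -0.02 and -0.08 after centring and quantile normalization over the tested genes; Mcl1 became -0.10 and -0.02 there, -0.01 after quantile normalization, and ranged from -0.04 to 0.03 with 1 array left out. In FGF2/activin against ESCs, Bmf became 0.01 after median centring and ranged from -0.11 to 0.03 with 1 array left out, and Bak1 became -0.04 after quantile normalization and -0.03 and -0.07 over the tested genes. Between the EpiSC cultures, Bid became 0.01 and Bad -0.01 after quantile normalization, or 0.05 and -0.04 over the tested genes. The cause was not tested. With the replicate block the members called were 6, 7 and 6 and the wider genes 35, 43 and 27, and no member's call changed; the numbers share only a name, since same-numbered arrays' deviations correlated between -0.07 and 0.24. Centring over the tested genes lowered the share of higher calls among all genes to 35% in both comparisons with ESCs, against 52.7% and 45.3% as deposited, and moved the median gene by -0.10 and -0.07. Signal over background was not available, which limits Pmaip1, Bad and the ESC level of Bcl2 most.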
